A study of Mus musculus with 4 samples.

Results

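In the library of liver hepatocytes taken 48 h after partial hepatectomy (PHx, surgical removal of part of the liver), nuclei differed in how many counts they had over 18 cell cycle genes. Barcodes with at least 8000 counts in peaks were each thinned to 8000 counts, and the score of a nucleus was its number of counts in peaks over the bodies and the 2 kb upstream of these genes. Nuclei above the 80th percentile of the score were called high and those below the 20th percentile low, so the score genes themselves set the groups. Of 4973 barcodes in this library, 2503 had enough counts, and of these 422 were high, 452 low and 1629 between. The whole series has 20217 barcodes in 4 libraries.

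The libraries were made by single-nucleus ATAC-Seq (scATAC-Seq), in which the Tn5 transposase cuts open chromatin and a droplet barcode marks the nucleus. They come from undamaged liver (0 h) and from 48, 72 and 96 h after PHx, with 1 library per time. All mice were adult C57BL/6J males with no transgene or other treatment, and the labels give an age of 10 to 12 weeks for every library, where the methods give a somewhat younger age at surgery. Hepatocytes were isolated by collagenase perfusion. The methods give 1 mouse for the 48 h preparation, and the paper describes 1 preparation at 0 h too. The methods also give the number of mice per time used for hepatocytes. How many of those mice gave the 72 and 96 h nuclei is not stated. With 1 library per time no test between times or between nuclei was possible, and the intervals below are exact 95% Poisson or binomial intervals, which cover counting error only and not the spread between animals.

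Adult hepatocytes are mostly out of the cell cycle and re-enter it after PHx. Cyclin D1 (Ccnd1) drives the passage from G1 towards S phase, in which the MCM helicase, the sliding clamp PCNA and ribonucleotide reductase serve DNA replication. Cyclin B with CDK1, the Aurora and Polo kinases and the APC/C activator CDC20 then act in G2 and mitosis. Replication-dependent histone genes, which lie in clusters, are transcribed mainly in S phase, when new chromatin is assembled.

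The score drew on 65 peaks that cover 108 kb, and the starts of 3 of the score genes with the largest shares of it are given here, with those of genes outside the score that the results below turn on. Each promoter runs from 250 bases before to 50 bases after the start (RefSeq, GRCm38.p6, the same assembly as mm10), and each lay inside a 48 h peak. Capitals mark matches, on either strand, to an E2F motif (TTTCCCGC, TTTCGCGC, TTTGCCGC or TTTGGCGC), to the cell cycle genes homology region (CHR, TTTGAA or TTCGAA) or to the CCAAT box. Matches may overlap.
Pcna, chr2:132253131-132253430, minus strand: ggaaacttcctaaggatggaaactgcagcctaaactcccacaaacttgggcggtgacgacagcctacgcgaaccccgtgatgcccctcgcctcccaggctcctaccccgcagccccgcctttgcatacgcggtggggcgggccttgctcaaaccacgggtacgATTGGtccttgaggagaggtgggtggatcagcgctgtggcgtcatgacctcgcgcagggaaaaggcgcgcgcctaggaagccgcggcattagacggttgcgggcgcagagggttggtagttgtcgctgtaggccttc
Cdc20, chr4:118437294-118437593, minus strand: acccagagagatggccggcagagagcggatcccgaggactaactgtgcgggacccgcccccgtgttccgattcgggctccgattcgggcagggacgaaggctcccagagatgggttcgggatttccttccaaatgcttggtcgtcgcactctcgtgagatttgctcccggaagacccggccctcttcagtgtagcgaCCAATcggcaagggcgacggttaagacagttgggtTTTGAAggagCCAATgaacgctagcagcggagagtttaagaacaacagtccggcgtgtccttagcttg
Mcm6, chr1:128359656-128359955, minus strand: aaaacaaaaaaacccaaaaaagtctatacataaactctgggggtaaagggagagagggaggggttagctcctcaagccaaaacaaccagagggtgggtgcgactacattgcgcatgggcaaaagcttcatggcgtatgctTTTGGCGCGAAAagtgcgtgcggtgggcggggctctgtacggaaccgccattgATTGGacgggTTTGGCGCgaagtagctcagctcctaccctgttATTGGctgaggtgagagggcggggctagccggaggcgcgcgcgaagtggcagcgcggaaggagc
Hmgb2, chr8:57511593-57511892, plus strand: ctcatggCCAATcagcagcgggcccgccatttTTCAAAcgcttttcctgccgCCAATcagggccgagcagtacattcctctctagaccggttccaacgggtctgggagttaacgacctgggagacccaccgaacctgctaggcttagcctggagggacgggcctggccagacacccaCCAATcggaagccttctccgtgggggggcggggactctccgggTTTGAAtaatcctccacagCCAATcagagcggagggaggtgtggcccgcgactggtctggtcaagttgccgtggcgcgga
Hal, chr10:93488518-93488817, plus strand: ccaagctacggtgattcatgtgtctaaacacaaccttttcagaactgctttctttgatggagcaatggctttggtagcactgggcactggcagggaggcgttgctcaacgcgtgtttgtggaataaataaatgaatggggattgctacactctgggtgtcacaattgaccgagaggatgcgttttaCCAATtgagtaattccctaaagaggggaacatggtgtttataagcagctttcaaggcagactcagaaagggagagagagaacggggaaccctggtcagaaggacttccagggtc

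The Mcm6 promoter held 3 E2F matches, some of which overlap, and 2 CCAAT boxes, and that of Cdc20 held 1 CHR and 2 CCAAT boxes. The promoter of Hmgb2, which encodes a chromatin protein that is abundant in dividing cells, held 2 CHR matches and 4 CCAAT boxes. Those of Pcna and of Hal, which encodes the histidine-degrading enzyme histidase, each held 1 CCAAT box only. Of the 18 score genes, 14 had a promoter in the sequence table (Aurkb, Ccna2, Ccnd1 and Foxm1 had none). A CCAAT box was present in 14 of the 14, a CHR match in 8 and an E2F match in 4. Of all 32851 promoters of this length, 37.4% held a CCAAT box, 19.2% a CHR match and 2.26% an E2F match. These are matches of letters, not binding sites.

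The score of the 2503 nuclei had a mean of 5.47 counts of 8000, a median of 5 and a range from 0 to 27. Its variance was 1.90 times its mean, and 77 nuclei (3.08%) had none. Both ends of a fragment count, so this ratio exceeds 1 without any difference between nuclei. With whole fragments drawn, where independent fragments would give about 2, it was 2.44 in the 1462 nuclei with at least 16000 counts at 48 h and 1.96 in the 2631 at 0 h. High nuclei had scores of 9 to 27 with a median of 10, and low nuclei of 0 to 2 with a median of 2. The cuts fell in a continuous range: 143 nuclei had a score of 9, just inside the high group, and 167 a score of 8, just outside it. At the lower cut 241 nuclei had a score of 2 and 268 a score of 3. In high nuclei a median of 5 of the 18 genes had any count, against 1 in low nuclei and 3 in all nuclei.

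**Figure D1:**
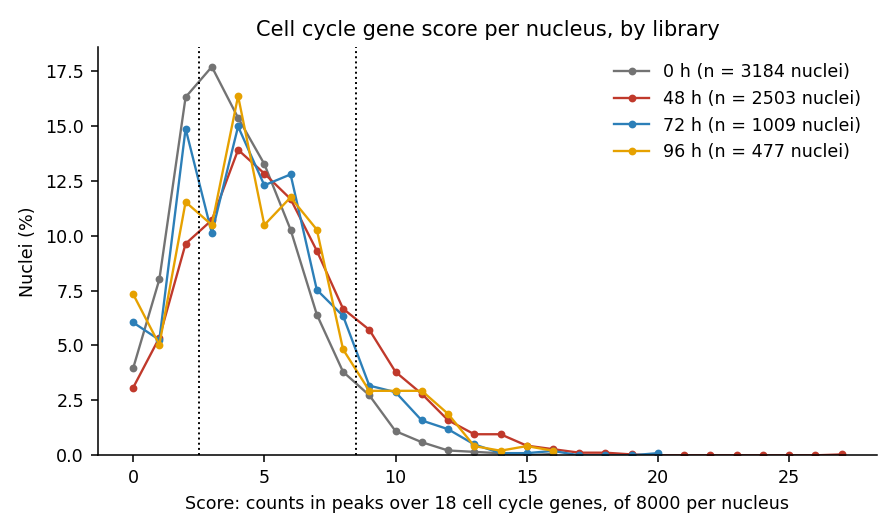
Percentage of nuclei (y axis) by score, the number of counts over 18 cell cycle genes per 8000 counts (x axis), in each library. Dotted lines mark the 48 h cuts below a score of 3 and above 8, and the 48 h curve reaches to a score of 27.

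Few genes supplied most of the score. Pcna gave 16.8% of its counts, Ccnd1 13.5%, Cdc20 10.9%, Mcm6 7.34%, Rrm2 (the small subunit of ribonucleotide reductase) 6.75% and Cdk1 6.23%. Promoter peaks of the score genes held 0.0560% of all counts, and their other peaks 0.0124%. As a description of what the rule chose, the Pcna peak (chr2:132240239-132254020) had 294 CPM (CPM, its counts scaled to a common total of counts in peaks; 95% interval 269 to 321) in high and 18.8 (13.0 to 26.3) in low nuclei. It covers the gene Tmem230 too. In 280 high nuclei (66.4%) and 57 low nuclei (12.6%) that peak had at least 1 count. The Cdc20 peak (chr4:118427137-118438197), which also covers Elovl1, had 154 CPM (136 to 174) in high and 16.6 (11.2 to 23.7) in low nuclei. Ccnd1 had 153 CPM (135 to 173) in high and 26.8 (19.8 to 35.5) in low nuclei. Top2a, which encodes the topoisomerase that separates sister chromatids, gave the fewest counts, with 11.6 CPM (7.01 to 17.9) in high and 2.49 (0.747 to 6.06) in low nuclei.

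To see whether the genes were open in the same nuclei, each gene was compared between nuclei that were high or low by the score of the other 17. The log2 ratio was above 0 for 14 of 18 genes and below 0 for 4, with a median of 0.30. Aurkb, the kinase of the chromosomal passenger complex, had the highest value, 0.94 (−0.14 to 2.33). Among the replication genes Mcm3 had 0.65 (−0.05 to 1.37), Mcm6 0.52 (−0.003 to 1.06) and Pcna 0.18 (−0.17 to 0.54). Among the mitotic genes Cdc20 had 0.31 (−0.11 to 0.75), while Plk1, a kinase of mitotic entry, had −0.81 (−1.57 to −0.02). The ratio for Ccnd1 was −0.02 (−0.38 to 0.35). The interval lay above 0 for 0 of the 18 genes and below 0 for 1, Plk1.

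**Figure D2:**
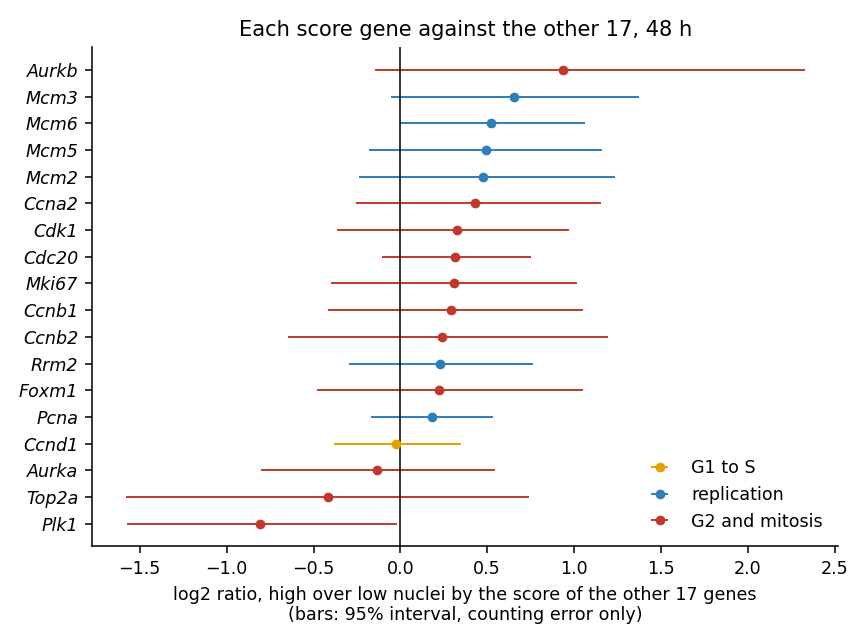
Log2 ratio of each score gene (x axis) between nuclei high and low by the other 17 genes, in the 48 h library, coloured by role; bars are 95% intervals of counting error. Most points lie above 0, and every interval but that of Plk1 includes 0.

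Counts of replication and of mitotic genes were not correlated over nuclei. Over the 2503 nuclei the summed counts of the 6 replication genes and of the 11 G2 and mitosis genes had a Pearson r of −0.004, from the same thinned library. Of the 334 nuclei above the 80th percentile for replication genes, 35 (10.5%) were also above it for G2 and mitosis genes, against 14.3% of all nuclei. The sums had means of only 2.24 and 2.49 counts per nucleus. At such low counts an r near 0 does not show that the genes mark different nuclei.

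Counts that the thinning had left out gave a measure in the same nuclei that the score had not used. In these 1462 nuclei, with at least 16000 counts, 8000 were drawn for the score as whole fragments and the rest set aside. The 235 high nuclei had 804 CPM of set-aside counts over the score genes and the 129 low nuclei 613, a 1.31-fold difference (1.21 to 1.42), with r = 0.217 over nuclei. The set-aside level was higher in high nuclei for 15 of the 18 genes. Drawn and set-aside counts of one gene had a mean r of 0.090, but this differed between genes, with 0.442 for Pcna, 0.298 for Cdc20 and 0.003 for Ccnb2. Between different score genes the mean r was 0.003 over 306 pairs. Summed over the replication genes, drawn and set-aside counts had r = 0.346, and over the G2 and mitosis genes r = 0.164. Drawn replication and set-aside G2 and mitosis counts had r = −0.022, and 0.0001 the other way. In the 2631 nuclei of the undamaged liver with that depth, the set-aside difference was 1.103-fold (1.05 to 1.15), with r = 0.060. There the drawn and set-aside Pcna counts had r = 0.029 and those of Cdc20 r = 0.051.

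Outside the score the clearest group were the histone genes. Of 66 replication-dependent histone genes (Hist1, Hist2 and Hist3 clusters), 61 had a peak and 33 passed the minimum, a mean of 100 counts in the high and low nuclei together. Of these 33, 25 were past 1.2-fold higher in high nuclei and 0 past 1.2-fold lower, and their median log2 ratio was 0.56. Over all 8696 genes compared, 10.2% were past 1.2-fold higher and 6.87% lower, and the median was 0.01. The 33 genes lie over 21 peaks, so they are fewer independent values than genes. Their list was drawn up after the peaks described below had been seen.

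The linker histone gene Hist1h1b, in one peak with Hist1h3i, had 58.9 CPM (47.9 to 71.7) in high and 28.8 (21.5 to 37.7) in low nuclei, with an interval of the log2 ratio of 0.55 to 1.55. Hist2h3c2, a histone H3 gene, had 72.3 CPM (60.02 to 86.3) against 42.0 (33.1 to 52.6). The most counted histone peak covers Hist1h1c, Hist1h2bb and Hist1h3c and had 209 CPM (188 to 232) in high and 158 (141 to 178) in low nuclei, a log2 ratio of 0.40 (0.17 to 0.63). The intervals of the high and low nuclei did not overlap for any of these peaks. The smallest ratio among the 33 was 0.06, for Hist1h4c and Hist1h1t, which share a peak.

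Summed over its 37 peaks, the histone list was higher in each higher class of score. It had 968 CPM (923 to 1014) at scores of 0 to 2, 1030 (998 to 1063) at 3 to 5, 1152 (1112 to 1192) at 6 to 8 and 1366 (1311 to 1423) at 9 to 27. The summed log2 ratio of high over low was 0.50 (0.41 to 0.59). In the counts set aside it was 0.33 (0.24 to 0.42), and there 25 of 37 genes were past 1.2-fold higher and 0 lower, where 11.8% of all genes were higher. Hist1h1c kept a set-aside log2 ratio of 0.32 (0.10 to 0.55). Hist1h1b had 0.42 (−0.02 to 0.87) and Hist2h3c2 0.15 (−0.22 to 0.56) there, and both intervals include 0. With the score from G2 and mitosis genes only, the median was 0.16, and without Pcna it was 0.21.

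**Figure D3:**
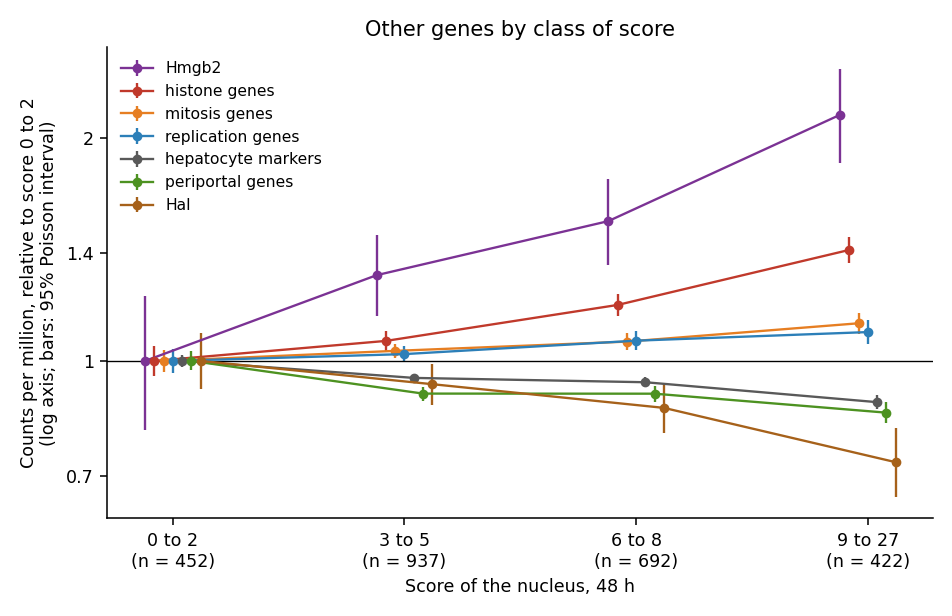
CPM of gene lists and of Hmgb2 and Hal in 4 classes of score (x axis), relative to nuclei with scores of 0 to 2 (log y axis); bars are 95% Poisson intervals. Hmgb2 and the histone genes are higher in each higher class, and the hepatocyte marker and periportal lists and Hal are lowest at scores of 9 to 27.

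The peaks of Pcna and Cdc20 were then used one at a time, since these genes had the highest r between drawn and set-aside counts. In the 1462 deep nuclei Pcna had a median of 76.2 CPM, a 99th percentile of 736 and a maximum of 1510, and 543 nuclei had none. Nuclei above the 80th percentile of the drawn Pcna counts (154) were set against those with no drawn Pcna count (1008), by their set-aside counts. Histone genes had 1384 CPM in the Pcna-high and 1087 in the other nuclei, a log2 ratio of 0.35 (0.28 to 0.41). In the same nuclei Cdc20 had a log2 ratio of −0.20 (−0.50 to 0.08) and Ccnd1 of −0.21 (−0.47 to 0.03). Replication genes outside the score had 0.10 (0.04 to 0.15) and mitosis genes outside the score, without the peak that Hmgb2 shares with Galnt7, 0.06 (0.01 to 0.11).

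In the 63 nuclei high for Cdc20, against 1102 with no drawn Cdc20 count, Pcna was lower, with 83.5 against 123 set-aside CPM and a log2 ratio of −0.56 (−0.97 to −0.17). Histone genes had a log2 ratio of 0.22 (0.12 to 0.32) and mitosis genes outside the score of 0.16 (0.08 to 0.23). Hepatocyte markers had 4933 against 5676 CPM, a log2 ratio of −0.20 (−0.25 to −0.15), where the Pcna-high nuclei had −0.03 (−0.06 to −0.001). The peak of Hmgb2 and Galnt7 was higher in both comparisons, with 0.87 (0.56 to 1.17) for Pcna and 0.93 (0.47 to 1.34) for Cdc20.

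Across nuclei, the drawn counts of Pcna and the set-aside share of the histone genes had r = 0.174, those of Cdc20 r = 0.051 and those of Ccnd1 r = −0.007, over 1462 nuclei of one library. All 13 histone peaks with at least 1500 counts had r above 0 with Pcna, with a median of 0.081. Over 4227 peaks of that depth farther than 1 Mb from Pcna, the median r was −0.004 with an SD of 0.032. The highest were peaks over Dnajb1 and Tecr (0.158), Glud1 with Shld2 (0.140), Ptma (0.130), which encodes prothymosin alpha, Fancc (0.126) and Trp53inp1 (0.122). With Cdc20 the highest were Treh (0.123), Ptms with Lag3 (0.116), Ncoa2 (0.111) and Tubb4b, a beta-tubulin gene, with Fam166a (0.108). Their r was 0.135 for Glud1 and 0.099 for Ptma, and 0.124 for Treh, 0.123 for Tubb4b but 0.007 for Ncoa2, when the set-aside counts of Pcna or Cdc20 were set against the drawn counts of the partner. The lowest r with Cdc20 was that of the peak over the transferrin gene Trf (−0.135, and −0.103 the other way). In the undamaged liver the r of these regions was between −0.031 and 0.047. These peaks were chosen by their values, and all such r are weak.

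Among the 58 mitosis genes outside the score, 23 were compared, and 6 were past 1.2-fold higher and 1 lower in high nuclei. Of all genes compared 10.2% were higher and 6.87% lower. The median log2 ratio of the 23 was 0.12. Summed over the list, high nuclei had 2214 CPM and low nuclei 1970, a log2 ratio of 0.17 (0.10 to 0.24), and 0.12 (0.06 to 0.18) in the counts set aside. Hmgb2 stood highest, with 111 CPM (95.7 to 128) in high and 51.7 (41.8 to 63.3) in low nuclei, a log2 ratio of 1.08 (0.73 to 1.47). Ccnf (cyclin F), the most counted member, had 256 CPM (log2 ratio 0.24, 0.04 to 0.44, but 0.01 set aside). Cdca3, which promotes mitotic entry and whose peak also covers Usp5, had 56.6 against 38.4 CPM (0.54, 0.10 to 1.02). Ndc80, of the outer kinetochore, had a log2 ratio of 0.55 (−0.04 to 1.14), but −0.05 set aside. Ckap5, a microtubule polymerase, had −0.01 (−0.24 to 0.22), Ncapd2 of the condensin complex 0.15 (−0.11 to 0.41) and Gtse1 −0.32 (−0.83 to 0.15).

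In the thinned counts that set the groups, the Hmgb2 difference was larger in a peak downstream of its promoter, but in the set-aside counts the promoter peak had the larger fold. The promoter peak (chr8:57510596-57513984) had 33.2 CPM (25.1 to 43.1) in high and 28.2 (21.0 to 37.1) in low nuclei, and these intervals overlap. The peak at the 3′ end of Hmgb2, which reaches the 3′ end of Galnt7 (chr8:57514909-57524232), had 77.9 CPM (65.2 to 92.4) against 23.5 (16.98 to 31.7), a 3.31-fold difference. This peak too lies within 1000 bp of an annotated transcript start. Of the high nuclei 109 (25.8%, 21.7 to 30.3) and of the low nuclei 51 (11.3%, 8.52 to 14.6) had a count there, and no nucleus of either group had more than 9 counts. In the set-aside counts Hmgb2 had 94.8 against 62.4 CPM, a log2 ratio of 0.59 (0.27 to 0.97), with a 1.43-fold difference in the 3′ peak and a 1.68-fold difference in the promoter peak. Over 20 further draws of the thinning the Hmgb2 log2 ratio was between 0.78 and 1.29. Uhrf1, which links DNA methylation to replication, also had more of its difference away from its first start: a peak inside the gene and near another annotated start (chr17:56305532-56313548) had 40.6 against 20.7 CPM, and the peak at its start 26.4 against 21.0.

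Of 49 replication genes outside the score, 22 were compared. Of these 7 were past 1.2-fold higher and 0 lower, where 10.2% of all genes were higher and 6.87% lower. The median log2 ratio of the 22 was 0.05 (0.10 as the median of 20 further draws, all higher). Their sum had a log2 ratio of 0.13 (0.05 to 0.21), and 0.11 (0.04 to 0.19) in the counts set aside. Uhrf1 had 82.6 CPM (69.5 to 97.5) in high and 56.4 (46.0 to 68.5) in low nuclei, and Rfc1, of the clamp loader, 35.5 against 26.5 (log2 ratio 0.40, with an interval from −0.15 that includes 0). In the set-aside counts Uhrf1 had a log2 ratio of 0.29 (−0.07 to 0.64). The 3 most counted members did not differ beyond counting error: Mcm10 had a log2 ratio of −0.01 (−0.30 to 0.27), the flap endonuclease gene Fen1 −0.06 (−0.38 to 0.26) and the thymidine kinase gene Tk1 0.04 (−0.33 to 0.39).

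Of the 23 compared regulators of the G1 to S step, 3 were past 1.2-fold higher and 0 lower. Of all genes compared 10.2% were higher and 6.87% lower, and these shares stand beside the other lists of this paragraph too. The summed log2 ratio of the G1 to S list was 0.05 (−0.02 to 0.12). Cdk6 had 209 CPM in high and 208 in low nuclei, and E2f8, a repressor of E2F targets, 193 against 171 (log2 ratio 0.17, −0.06 to 0.40). Among 8 p53 target genes 1 was past 1.2-fold higher, Trp53inp1, with 242 CPM (219 to 267) in high and 180 (161 to 201) in low nuclei. Its set-aside log2 ratio was −0.002 (−0.21 to 0.20), and the list's summed set-aside value was 0.06 (−0.03 to 0.16). None of 13 immediate early and AP-1 genes was past 1.2-fold in either direction: 0 were higher and 0 lower, with a summed log2 ratio of 0.01 (−0.04 to 0.06). Of 44 ribosomal protein genes 10 were higher and 3 lower, with a summed log2 ratio of 0.08 (0.03 to 0.14) and of 0.05 (−0.002 to 0.10) set aside. Of 37 oxidative phosphorylation genes 6 were higher and 2 lower (0.03, −0.02 to 0.08).

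Some genes of the mature hepatocyte were lower in high nuclei, mainly among the hepatocyte markers and periportal genes. Of the 9 compared hepatocyte marker genes 3 were past 1.2-fold lower and 0 higher, where 6.87% of all genes were lower and 10.2% higher. The median log2 ratio of the 9 was −0.19 (−0.12 as the median of 20 further draws, all closer to 0). Together they had 5299 CPM in high and 6023 in low nuclei (log2 ratio −0.18, −0.23 to −0.14). Alb, the albumin gene, had 719 CPM (679 to 761) in high and 886 (843 to 930) in low nuclei, a log2 ratio of −0.30 (−0.41 to −0.19). Cps1, which encodes the entry enzyme of the urea cycle, had 1358 CPM against 1653, a log2 ratio of −0.28 (−0.36 to −0.21). The apolipoprotein B gene Apob did not differ beyond counting error (0.02, −0.08 to 0.12). In the counts set aside the list had a summed log2 ratio of −0.13 (−0.17 to −0.10), Alb −0.16 (−0.26 to −0.06) and Cps1 −0.19 (−0.27 to −0.12). There 1 of the 9 genes was past 1.2-fold lower, where 8.6% of all genes were.

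Of the 9 compared periportal genes, those most active near the portal vein in healthy liver, 5 were past 1.2-fold lower and 0 higher. Of all genes compared 6.87% were lower and 10.2% higher. The periportal genes had a median log2 ratio of −0.29. Together they had 2079 CPM (2011 to 2149) in high and 2442 (2370 to 2515) in low nuclei, a log2 ratio of −0.23 (−0.30 to −0.17), and −0.16 (−0.23 to −0.10) in the counts set aside. Hal, under one peak (chr10:93485011-93523437), had 206 CPM (185 to 229) in high and 282 (258 to 308) in low nuclei, a log2 ratio of −0.45 (−0.65 to −0.25). Its level by class of score was 282, 263, 244 and 206 CPM. The set-aside log2 ratio was −0.28 (−0.49 to −0.07) for Hal and −0.27 (−0.39 to −0.15) for the urea cycle gene Ass1. Pck1, of gluconeogenesis, had −0.09 (−0.23 to 0.04). Of the 9 pericentral genes, 0 were past 1.2-fold in either direction, and the summed log2 ratio was 0.01 (−0.07 to 0.10), or −0.08 (−0.16 to −0.01) set aside, while the median was −0.02.

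Of the 15 hepatocyte transcription factor genes 0 were past 1.2-fold in either direction, with a summed log2 ratio of −0.07 (−0.11 to −0.02) and −0.16 (−0.26 to −0.07) for Rxra. Of the 8 bile acid genes 0 were past it (−0.03, −0.11 to 0.05), with −0.19 (−0.38 to −0.01) for the bile salt export pump gene Abcb11. Of 10 receptor genes 1 was higher, where 10.2% of all genes were higher and 6.87% lower. It was Fgfr4, with a log2 ratio of 0.40 and an interval that includes 0 (−0.13 to 0.97). The most counted receptor gene, Egfr, had a log2 ratio of −0.10 (−0.17 to −0.04). Of the 16 fetal and progenitor genes 6 were compared, with 0 past 1.2-fold and a summed log2 ratio of −0.12 (−0.23 to −0.01), or −0.06 (−0.17 to 0.04) set aside. Yap1 among them had 160 CPM in high and 185 in low nuclei.

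**Figure D4:**
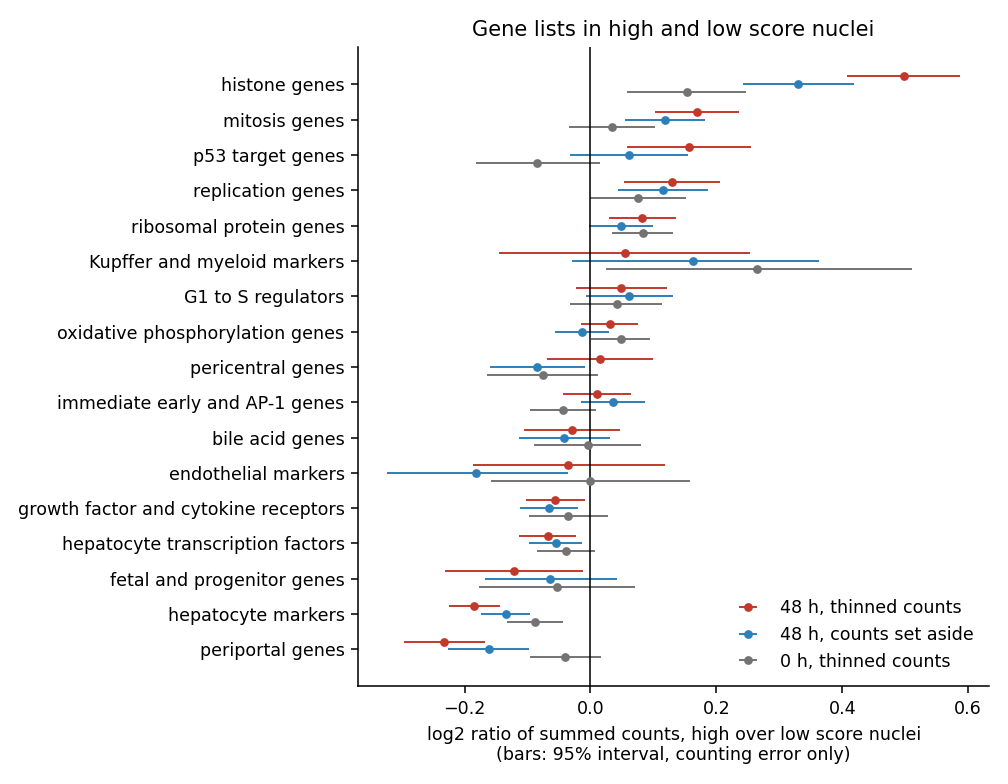
Log2 ratio of summed counts, high over low nuclei (x axis), for lists with at least 3 genes compared (y axis), from thinned and set-aside counts at 48 h and thinned counts at 0 h; bars are 95% intervals of counting error. In the thinned counts at 48 h the histone list lies highest, at 0.50, and the periportal list lowest, at −0.23. In the set-aside counts the endothelial list lies lowest, at −0.18.

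By a rule that took the 10 largest ratios in each direction among the 1902 genes with a mean of at least 400 counts, where 2% of genes were past 1.2-fold higher and 2.31% lower, the first was Galnt7 (0.59, 0.32 to 0.88), a glycosyltransferase gene. The peak it shares with Hmgb2 held 104% of its difference, while its own promoter peak had 36.1 CPM in high and 48.1 in low nuclei. Others were Hist1h2be (0.48), which shares peaks with Hist1h4d and Hist1h1e, Trp53inp1 (0.43), Sp4 (0.42), Hist1h1c (0.40), Ugt2b35 (0.39), Il4i1 (0.38), whose peaks also cover Atf5, Nup62 and Tbc1d17, Nfe2l3 (0.34), which shares peaks with Hnrnpa2b1 and Cbx3, and Fam210a (0.33). Set aside, the log2 ratio was 0.41 (0.13 to 0.69) for Hist1h2be, 0.25 (0.01 to 0.49) for the glucuronosyltransferase gene Ugt2b35 and 0.32 (0.13 to 0.53) for Nfe2l3, but −0.16 (−0.43 to 0.10) for Sp4.

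The 10 most lowered were Hal, Acly (ATP citrate lyase, −0.38), Nudt7 (−0.37), the choline kinase gene Chka (−0.37), the aminotransferase gene Got1 (−0.36), Bhmt (−0.36), which remethylates homocysteine, Gm33543 (−0.36), Desi2 (−0.36), Amdhd1 (−0.35), a later enzyme of histidine breakdown, which shares a peak with Hal, and the histone methyltransferase gene Setdb1 (−0.35). Set aside, Amdhd1 had −0.25 (−0.41 to −0.08) and Gm33543 −0.29 (−0.54 to −0.05), while Chka had 0.01 (−0.17 to 0.20) and Got1 0.12 (−0.14 to 0.37). The log2 ratios of all 8696 genes had an SD of 0.19, and the median width of the 95% interval of 1 gene was 0.83, so most single genes were below what this depth can show.

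**Figure D5:**
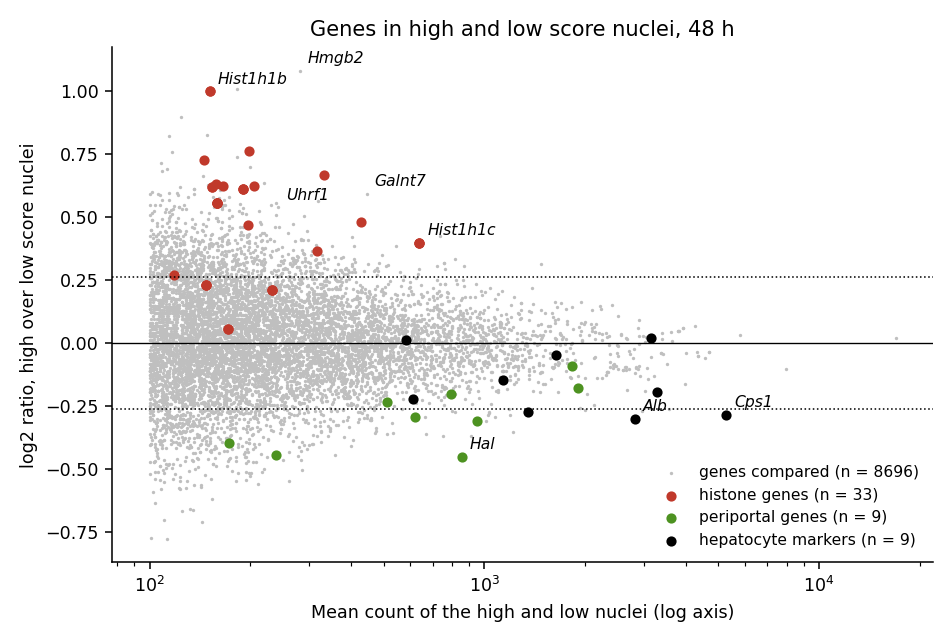
Log2 ratio of high over low nuclei (y axis) against the mean count of the high and low nuclei (log x axis) for the 8696 genes compared; dotted lines mark 1.2-fold. Histone genes lie mostly above the upper line, and Hal, Alb and Cps1 below the lower one.

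The promoter share of counts, the control of the rule, was slightly higher in high nuclei, with a pooled share of 52.2% (52.1 to 52.3) against 51.6% (51.5 to 51.6). Its median was 51.6% in high nuclei (quartiles 50.1 to 53.6) and 51.4% in low nuclei (49.9 to 52.8), with r = 0.094 between score and share. Weighting the groups to one distribution of the share left the histone median at 0.53. Before thinning, high nuclei had a median of 18087 counts (95% interval of the median 16958 to 19967) and low nuclei of 16234 (14727 to 16955), and the part of this in the results was not tested beyond the weighting. Weighted to one distribution of the total, the histone median was 0.55. The 90 compared genes within 500 kb of a score gene that share no peak with one had a median log2 ratio of −0.003. Of these 6 were higher and 5 lower, where 10.2% of all genes were higher and 6.87% lower. Peaks of 10 kb or longer outside the score held 15.9% of the counts of high and 16.2% of low nuclei.

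Markers of other liver cells were low in both groups beside the 5299 and 6023 CPM of the hepatocyte markers. Endothelial markers had 398 CPM in high and 408 in low nuclei (log2 ratio −0.04, −0.19 to 0.12), Kupffer and myeloid markers 244 and 235 (0.05, −0.14 to 0.25), stellate and mesenchymal markers 131 and 120 (0.13, −0.15 to 0.41) and cholangiocyte markers 217 and 229 (−0.07, −0.28 to 0.13). The median of the compared Kupffer and myeloid genes was −0.05, of the other sign than their sum, and lay between 0.04 and 0.41 in 20 further draws. In the counts set aside endothelial markers had −0.18 (−0.32 to −0.04). Without the nuclei in which these markers outnumbered the hepatocyte markers, 414 high and 450 low nuclei remained and the histone median was 0.50. Barcodes are reused between libraries, which shared 681 to 882 of them in pairs. Of the 874 compared nuclei 41 had a barcode that is also in the 0 h library.

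Membership depended on the draw. In 20 further draws a median of 58.2% of the high nuclei (55.5 to 60.9) were high again, 52 of the 422 were high in all 20 and 47 were low in at least 1. The list medians kept their sign in all 20 draws for histone genes (0.45 to 0.68), mitosis genes (0.06 to 0.24), replication genes (0.05 to 0.16), hepatocyte markers (−0.17 to −0.06) and periportal genes (−0.35 to −0.08). So did those of p53 target genes (0.03 to 0.24), ribosomal protein genes (0.05 to 0.16) and hepatocyte transcription factors (−0.14 to −0.02). Kupffer and myeloid markers had the same sign in all 20 (0.04 to 0.41), but the other sign in the main draw. These draws share the nuclei and many of the counts.

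The same rule was applied in the other libraries, each on its own peaks. In the undamaged liver 3184 nuclei had a mean score of 4.07. There 7 of 26 histone genes were past 1.2-fold higher, where 11.2% of all genes were higher and 4.33% lower. The summed log2 ratio of the histone list was 0.15 (0.06 to 0.25), where it was 0.50 (0.41 to 0.59) at 48 h. With 1 library per time, the intervals cover counting error and do not test a difference between times. Mitosis genes had 0.03 (−0.03 to 0.10) at 0 h and 0.17 (0.10 to 0.24) at 48 h. Periportal genes had −0.04 (−0.10 to 0.02) at 0 h and −0.23 (−0.30 to −0.17) at 48 h. On regions with a peak in every library the histone sum was 0.44 (0.34 to 0.53) at 48 h and 0.08 (−0.02 to 0.17) at 0 h. The periportal sum there was −0.18 (−0.24 to −0.12) at 48 h and −0.11 (−0.17 to −0.06) at 0 h, and the mitosis sum 0.13 (0.06 to 0.20) at both times, so these intervals overlap. Hepatocyte markers there had −0.13 (−0.17 to −0.09) at 48 h and −0.10 (−0.14 to −0.06) at 0 h, which overlap too. Hepatocyte markers had −0.09 (−0.13 to −0.04) at 0 h and −0.18 (−0.27 to −0.09) at 72 h. At 72 h, with 1009 nuclei, histone genes had 0.33 (0.11 to 0.54) and periportal genes −0.17 (−0.29 to −0.04), and on the shared regions both, with the hepatocyte markers, included 0. At 96 h, with 477 nuclei, the intervals of the histone, mitosis, hepatocyte marker and periportal lists all included 0 on the library's own peaks, while on the shared regions hepatocyte markers had −0.12 (−0.21 to −0.02). Other lists had values in these libraries that were as large as at 48 h or larger. Ribosomal protein genes had 0.08 (0.03 to 0.13) at 0 h, Kupffer and myeloid markers 0.26 (0.03 to 0.51) at 0 h, and immediate early and AP-1 genes −0.18 (−0.28 to −0.09) at 72 h. Peaks were called separately in each library and depth differed, and their part in these differences was not tested.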

How the data were processed

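The authors made the deposited counts with Cell Ranger ATAC 1.1.0 against mm10, per the file headers and processing notes. Each value is the whole number of transposase cut sites in a peak and a barcode, and 87.5% of the 48 h values were even, since both ends of a fragment count. Peaks were called in each library on its own. The study filtered nuclei by transcription start site enrichment and fragment number, and those cutoffs were not applied here. All 48 h peaks ended inside the chromosomes of GRCm38.

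Nuclei were thinned without replacement to 8000 counts (Python 3.11.15, numpy 2.4.6, scipy 1.17.1). No doublet caller was run. The 5% deepest nuclei were left out as an alternative. A gene's counts were those in peaks over its body (GENCODE vM21) and the 2 kb upstream, and promoter peaks lay within 1000 bp of a transcript start. The 26 genes that share a peak with a score gene were not compared, and neither were genes with a mean under 100 counts. Log2 ratios of genes used a pseudocount of 5, after both groups were scaled to the same total. ATAC counts carry no strand, so overlapping genes share their values. Intervals treat 2 counts as 1 fragment. Named genes were the 10 largest ratios in each direction among genes with a mean of at least 400 counts, and of each list the 3 most counted members and the 3 with the largest ratio in each direction past 1.2-fold. Members and lists were chosen with earlier results of these data known. The histone list, the peaks that vary with Pcna and Cdc20, and the peaks of Hmgb2 and Uhrf1 were chosen after their values were seen. The method was tested on simulated data. Some genes that these rules name are not reported here.

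In the 48 h library the 2503 nuclei used had a median of 18093 counts. One hepatocyte marker of 10 (Tf) had no gene of that symbol in the annotation. Binarised peaks, other depths, scores from other genes, other cuts, weighted groups and set-aside counts were tried as alternatives.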

Additional observations from a re-analysis of the deposited data

How the results depend on the processing

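No paired analysis was possible because each time has 1 library and the libraries carry no replicate numbers. Over 20 alternatives the medians of histone, mitosis, ribosomal, hepatocyte marker and periportal genes kept their direction, but with smaller values in many: histone genes 0.16 to 0.57 (0.56 in the report), mitosis 0.0679 to 0.216 (0.12), ribosomal 0.0312 to 0.172 (0.176, above every alternative), and periportal −0.304 to −0.101 (−0.295). The score is 0.0684% of the counts, which limits its precision. A score from replication genes with the strict cut left no low nuclei, and at 5000 counts all low nuclei had a score of 0, so neither gives a fold. Scores without Pcna, cuts at or below the 20th percentile and the further draws were added after seeing the data. The score fold, 7.93 in the report, was 82.2 with whole fragments drawn, 4.35 at 16000 counts, 4.97 with binarised peaks, 19.9 between the 90th and 10th percentiles, 1.31 set aside, 3.06 from replication genes (low at or below the 20th percentile) and, from G2 and mitosis genes, 2.63 with that cut and 3.21 with the strict one. The ratio of total counts was 1.34 at 5000 counts, 0.961 in the nuclei with counts set aside and 0.959 from G2 and mitosis genes with the looser cut, and the promoter share difference was −0.247 points at 16000 counts. Genes past 1.2-fold, 1484 in all, numbered 971 at 5000 counts, 508 binarised, 794 between the 90th and 10th percentiles and 5382 with no minimum. The hepatocyte marker median was −0.127 in a second draw, −0.121 as the median of 20 draws, −0.0599 with whole fragments, −0.0933 at 5000 and −0.151 at 16000 counts, −0.0746 binarised, −0.146 without Ccnd1, −0.103 without Pcna, −0.131 from replication genes, −0.0399 and −0.0510 from G2 and mitosis genes (looser and strict cut), −0.261 between the 90th and 10th percentiles, −0.104 without the 5% deepest nuclei and −0.118 set aside. The replication median was 0.153 in a second draw, 0.172 at 16000 counts, 0.143 without Ccnd1, 0.127 and 0.132 from replication or G2 and mitosis genes and 0.230 from promoter peaks, against 0.0496 in the report, and it changed sign to −0.00999 with groups weighted to equal totals. The mitosis median was 0.216 at 16000 counts and 0.214 between the 90th and 10th percentiles. The G1 to S median was 0.0159 with whole fragments, and reversed to −0.0157 at 16000 counts, −0.00901 binarised, −0.000239 and −0.0210 from G2 and mitosis genes and −0.0230 between the 90th and 10th percentiles. The p53 median reversed to −0.0387 binarised, −0.0657 without the deepest nuclei, −0.00225 set aside and −0.0507 without Pcna, and the fetal median to 0.0153 without Pcna. Of single genes, set aside, Trp53inp1 (−0.00151), Sp4 (−0.160), Chka (0.0139), Got1 (0.119) and Desi2 (0.109) reversed. So did Acly (0.177) with whole fragments, Bhmt (0.00294) and Setdb1 (0.254) at 5000 counts, Chka (0.0148) at 16000, Ugt2b35 (−0.00555 and −0.0327) and Bhmt (0.0103) from G2 and mitosis genes, and Trp53inp1 (−0.0864) and Acly (0.185) without Pcna. On regions with a peak in every library the mitosis median was 0.167 at 0 h and 0.337 at 72 h, G1 to S 0.0608 at 72 h and −0.110 at 96 h, hepatocyte markers −0.0192 at 72 h, and periportal genes 0.152 at 72 h and −0.109 at 96 h. The causes of these changes were not tested.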
